A study of Mus musculus with 6 samples.

Results

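T-box factors of lateral and cardiac mesoderm are a group of 8 transcription factor genes, Tbx1, Tbx2, Tbx3, Tbx4, Tbx5, Tbx15, Tbx18 and Tbx20, examined here in cells sorted from mouse embryos. Members were the probe sets, short stretches of a transcript read together on the array, that the platform annotation gives exactly 1 of these symbols. There were 18 such probe sets among 45101 on the array, and 34945 probe sets carried 1 symbol. Tbx3 had 5 probe sets, Tbx20 had 3, Tbx4, Tbx5, Tbx15 and Tbx18 had 2 each, and Tbx1 and Tbx2 had 1 each. Of the 18, 10 passed the filter on low values, from 6 genes of the 12628 genes measured; no probe set of Tbx1 or Tbx15 passed.

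The samples were mouse embryos of a mixed 129S3;ICR background, heterozygous for GFP at the Noto locus, at embryonic day 8.5 with a median of 6 somites. Noto is a homeobox gene of the node and early notochord, so GFP-positive cells are those in which this locus was read out, and GFP-negative cells are the other sorted cells of the same posterior tissue; both groups carried the same heterozygous reporter. Tissue behind the boundary of the first 2 somites was pooled from 23, 39 and 52 embryos of mixed sex (pools 1, 2 and 3), and each pool gave 1 array of GFP-positive cells (about 2600, 4300 and 6600 cells) and 1 array of GFP-negative cells. Each group therefore held 3 arrays of separate pools, and each array is an average over many embryos. The labels give 1% trypsin for every sample.

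T-box factors share a DNA-binding domain, the T-box, and switch target genes on or off as activators or repressors. Tbx20 and Tbx5 act in the forming heart with GATA, Nkx2-5 and Hand factors, and Tbx5 and Tbx4 are known for the start of the forelimb and hindlimb buds. Tbx2 and Tbx3 are repressors, Tbx18 and Tbx15 repress through Groucho corepressors, and Tbx1 is known for the pharyngeal arches and the second heart field. At this stage the tissue sorted here lies behind the heart, and lateral plate and allantois are among the places where Tbx20 and Tbx4 are known.

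The stretches around the start sites are shown for the genes with the largest decreases, Tbx20 and Tbx4, and for Tbx18, the gene that was higher. Each holds 250 bases before and 50 after the start, from RefSeq (GRCm38.p6), 5′ to 3′ along the gene; of the 8 genes, 4 had an entry (Tbx1, Tbx4, Tbx18 and Tbx20). Capitals mark matches, on either strand, to 5 motifs, of which no match overlapped another. These were the half-site of T-box proteins, AGGTGT, the site of zinc finger factors of the Gata family, AGATAA, a site of forkhead proteins, TGTTTA, the TATA box, TATAAA, and the GC box, GGGCGG. The stretches lie at chr9:24774254-24774553 (minus strand), chr11:85896515-85896814 (plus strand) and chr9:87731211-87731510 (minus strand), in this order.
Tbx20: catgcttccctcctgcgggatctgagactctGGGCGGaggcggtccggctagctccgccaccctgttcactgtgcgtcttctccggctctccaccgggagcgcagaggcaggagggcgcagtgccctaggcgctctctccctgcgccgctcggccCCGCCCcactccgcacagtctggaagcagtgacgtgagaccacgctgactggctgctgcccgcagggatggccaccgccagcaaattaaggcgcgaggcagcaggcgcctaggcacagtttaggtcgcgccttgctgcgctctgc
Tbx4: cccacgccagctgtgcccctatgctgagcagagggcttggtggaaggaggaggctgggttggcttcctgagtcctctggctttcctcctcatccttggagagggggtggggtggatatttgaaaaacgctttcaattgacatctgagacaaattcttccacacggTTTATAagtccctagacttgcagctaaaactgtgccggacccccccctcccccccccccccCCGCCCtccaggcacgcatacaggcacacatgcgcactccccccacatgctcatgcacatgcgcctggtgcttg
Tbx18: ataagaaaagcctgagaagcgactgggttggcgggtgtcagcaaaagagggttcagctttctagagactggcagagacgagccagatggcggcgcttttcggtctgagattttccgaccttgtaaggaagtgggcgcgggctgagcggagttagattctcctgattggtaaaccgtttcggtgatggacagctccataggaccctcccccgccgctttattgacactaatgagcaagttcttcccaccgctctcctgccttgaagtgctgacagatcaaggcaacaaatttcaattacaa
The Tbx20 stretch held 2 GC boxes, which start at -219 and -95 from the start site. The Tbx4 stretch held a GC box at -24 and a TATAAA element at -85, both on the opposite strand, and the Tbx18 stretch matched none of the 5 motifs. Among all 32851 promoters of this length, 35.7% held the GC box, 13.7% the T-box half-site, 13.6% the TATA box, 13.4% the forkhead site and 11.2% the Gata site. G and C made up 68.3% of the Tbx20 stretch, 59.0% of that of Tbx4 and 51.7% of that of Tbx18, against a median of 52.7%, with 26, 8 and 15 CpG pairs against a median of 7.0. These are matches of letters, and a window without a match says only that the letters are not in it.

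The deposited values are array intensities on a linear scale; their precision is limited by the number of arrays. Array medians lay between 19.8 and 28.0, so values below about that level may be background. The notochord label was set beside a marker list that was chosen with earlier results of these data known. Of 14 listed genes 12 were measured (Noto and T were not). At an adjusted p below 0.05 in limma, 9 were higher in GFP-positive cells and 0 lower, against 2.60% and 1.41% of all genes. The summed intensity of the 12 was 12932 to 15595 on GFP-positive and 1919 to 2861 on GFP-negative arrays. Both arrays of pool 1 stood apart in a measure of RNA quality: the 3′ over 5′ signal ratio of the Gapdh control was 14.0 and 15.4 in pool 1 and 1.60 to 2.22 elsewhere. The part of RNA quality in the results below was not tested.

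Within the T-box group, 4 measured genes fell and 1 rose in GFP-positive cells (adjusted p below 0.05). Tbx20, Tbx4, Tbx3 and Tbx5 fell, Tbx18 rose, and Tbx2 did not pass (adjusted p = 0.0637). Over all genes measured, 1.41% were lower and 2.60% higher. Blocked on the embryo pool, Tbx2 passed too (adjusted p = 0.0408), which gave 5 lower and 1 higher against 6.76% and 8.40% of all genes. Without pool 1, whose RNA quality stood apart (above), 5 members were lower and 1 higher, among 2163 lower and 2432 higher genes in all. Without pool 2 no member passed, and over all genes 0 were lower and 5 higher. Without pool 3 no member passed either, and over all genes 1 was lower and 32 were higher. The median log2 fold change of the 6 measured members was -1.28, against 0.01 over all genes, but Tbx2 and Tbx5 entered through their GFP-negative arrays alone and so had to differ. Over all 18 probe sets, filtered or not, 10 had every GFP-positive array below every GFP-negative one, 2 had every GFP-positive array above, and 6 overlapped; among all 45037 probe sets that are no controls, 13.1% and 8.50% did so. In bulk RNA, fewer cells of a type and less RNA per cell cannot be told apart.

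**Figure D1:**
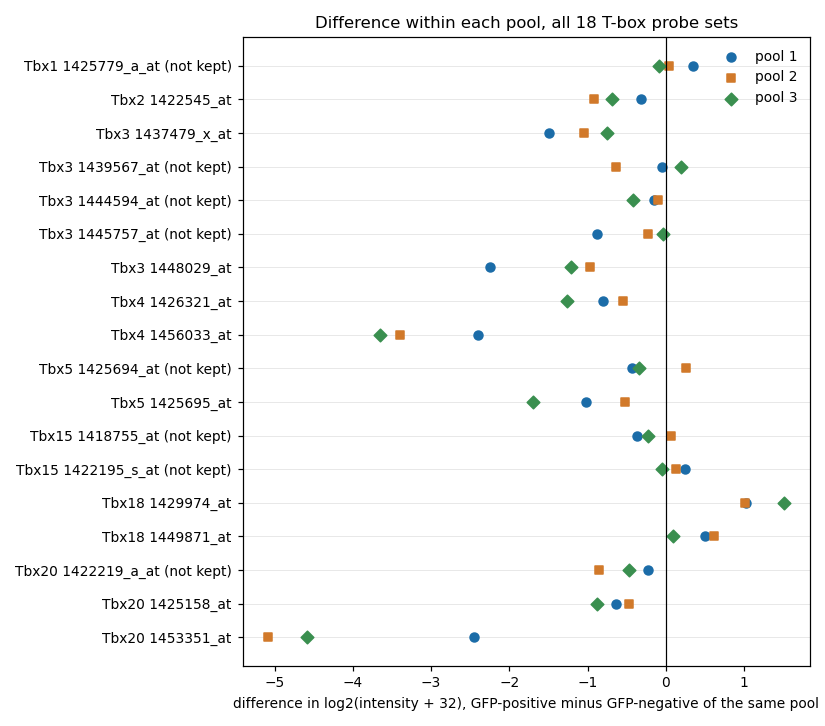
Difference in log2(intensity + 32) between the GFP-positive and the GFP-negative array of the same pool (x axis, log2 units) for all 18 T-box probe sets (rows); each point is 1 pool, and probe sets marked "not kept" did not pass the filter. The brightest Tbx20 and Tbx4 probe sets lie farthest to the left in every pool, and both Tbx18 probe sets lie to the right of 0 in every pool.

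Tbx20, a factor of heart and lateral mesoderm, had the largest change of the group. Its brightest probe set, 1453351_at, read 680.1, 2682 and 2104 on the GFP-negative arrays of pools 1, 2 and 3, and 98.4, 48.2 and 57.1 on the GFP-positive arrays. The groups did not overlap, and GFP-negative pool 1 was the lowest of its group while GFP-positive pool 1 was the highest of its own. The ratio of GFP-negative to GFP-positive intensity was therefore 6.91 in pool 1, 55.6 in pool 2 and 36.9 in pool 3. On the log2(intensity + 32) scale, used for all fold changes here, Tbx20 fell by 4.04 ± 0.47 (SE, adjusted p = 0.00439). It did not pass without pool 2 (-3.52, adjusted p = 0.128) or pool 3 (-3.77, adjusted p = 0.0676), and passed without any 1 array (adjusted p up to 0.0317). Averaged over the kept probe sets of the gene, the log2 fold change was -2.35.

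The other 2 probe sets of Tbx20 were dim. On GFP-negative arrays 1425158_at read 32.2, 34.6 and 41.4, and on GFP-positive arrays 9.34, 16.1 and 7.97. These groups did not overlap either, and the log2 difference was -0.66 ± 0.15; it missed the threshold over all probe sets (adjusted p = 0.0724), and it passed once the pool was a block in the fit (adjusted p = 0.0403). The third, 1422219_a_at, was not kept; it read 8.27, 30.1 and 25.2 on GFP-negative and 2.27, 2.24 and 9.19 on GFP-positive arrays, so GFP-negative pool 1 fell within the GFP-positive range. All 3 probe sets were lower in GFP-positive cells in each pool. Of these, 1425158_at reached the 40th percentile on 3 GFP-negative arrays and 1 GFP-positive array, so the filter favoured this direction for it. Intensities of different probe sets are not comparable as levels, and a dim probe set has less room to show a change on this scale.

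Tbx4, a factor of the hindlimb field and allantois, had the next largest change. Its probe set 1456033_at read 323.7, 1100.0 and 1340.2 on GFP-negative arrays and 35.3, 75.4 and 77.2 on GFP-positive arrays. The groups did not overlap, and pool 1 was the lowest in both. Tbx4 fell by 3.15 ± 0.48 (SE, adjusted p = 0.0136), with differences of -2.40, -3.40 and -3.65 in pools 1, 2 and 3. Its second probe set, 1426321_at, read 28.0, 24.5 and 47.5 on GFP-negative and 2.25, 6.65 and 0.99 on GFP-positive arrays. That probe set fell by 0.87 ± 0.17 too (adjusted p = 0.0443 over probe sets), but it passed the filter through the GFP-negative arrays alone. Tbx4 did not pass without pool 2 (adjusted p = 0.253) or pool 3 (0.104), nor without GFP-negative array 2 (0.0872), GFP-positive array 2 (0.0522) or GFP-positive array 3 (0.0504). Averaged over both probe sets, the log2 fold change was -2.01.

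Tbx5, the forelimb and heart factor closest to Tbx4 in the family, fell from a low level. Its kept probe set, 1425695_at, read 41.1, 30.7 and 84.4 on GFP-negative arrays and 4.06, 11.7 and 3.75 on GFP-positive arrays. All 3 GFP-positive values lay below the array medians, and pool 3 held the highest GFP-negative value. Tbx5 fell by 1.08 ± 0.24 (SE, adjusted p = 0.0477), just under the threshold; adjusted over probe sets it was 0.0666. The second probe set, 1425694_at, was not kept, read at most 11.8 on any array and had a difference of 0.26 in pool 2 against -0.43 and -0.34 in pools 1 and 3. Tbx5 passed without GFP-negative array 1 (adjusted p = 0.0180) or pool 1 (0.0172) and with no other single array or pool left out (0.0721 to 0.316), and at an offset of 64 its log2 fold change was -0.69 (0.0580).

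Tbx3, a repressor active in heart, limb and body wall, fell in GFP-positive cells. Its brightest probe set, 1448029_at, read 370.5, 202 and 210.6 on GFP-negative arrays and 53.0, 87.8 and 73.0 on GFP-positive arrays. The groups did not overlap, and GFP-negative pool 1 was the highest of its group, the reverse of its place for Tbx20 and Tbx4. Tbx3 fell by 1.47 ± 0.27 (SE, adjusted p = 0.0265). The second kept probe set, 1437479_x_at, read 114.8, 74.2 and 46.4 on GFP-negative and 20.3, 19.5 and 14.5 on GFP-positive arrays, again with pool 1 highest among the GFP-negative arrays. Its difference was -1.10 ± 0.24 and missed the threshold over probe sets (adjusted p = 0.0652); it passed when blocked on the pool (0.0136). The other 3 probe sets of Tbx3 were not kept and read between 0.351 and 27.6. Tbx3 passed without GFP-negative array 1 (adjusted p = 0.00812) or pool 1 (0.00151), and it did not pass with any other single array or pool left out (0.0573 to 0.299).

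Tbx2, a repressor related to Tbx3, was dim on every array. Its probe set 1422545_at read 22.4, 29.3 and 31.2 on GFP-negative arrays and 11.6, 0.56 and 7.40 on GFP-positive arrays. The groups did not overlap, and the GFP-negative values ranked between 49.3 and 54.1% of each array's probe sets. The difference was -0.64 ± 0.16 (SE, adjusted p = 0.0637), and it passed with the block, as given above, and without GFP-negative array 1 (0.0238) or pool 1 (0.00853). Like the dimmer Tbx4 probe set and Tbx5, it was kept through the GFP-negative arrays alone.

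Tbx18, a factor of the front part of each somite and later of the heart's outer layer, was the member that rose. Its probe set 1429974_at read 194, 164 and 143 on GFP-positive arrays and 79.3, 64.9 and 29.2 on GFP-negative arrays. The groups did not overlap, and pool 1 was the highest in both. The GFP-positive intensity was 2.45, 2.52 and 4.90 times the GFP-negative one in these pools. Tbx18 rose by 1.18 ± 0.27 (SE, adjusted p = 0.0481), close to the threshold; adjusted over probe sets it was 0.0679, and with the pool as a block it was 0.00888 over probe sets. The second probe set, 1449871_at, read 21.4, 20.4 and 23.6 on GFP-positive and 5.63, 2.35 and 20.2 on GFP-negative arrays. Its difference of 0.40 ± 0.18 did not pass (adjusted p = 0.267), although the GFP-positive arrays were again all higher. This probe set reached the 40th percentile on 3 GFP-positive arrays and 1 GFP-negative array, so the filter favoured this direction. Tbx18 passed without GFP-negative array 1 (adjusted p = 0.00917) or pool 1 (0.00417), and it did not pass with any other single array or pool left out (0.0957 to 0.536) or with an offset of 16 (0.0501).

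Tbx15, the closest relative of Tbx18, and Tbx1 were not well above background. Tbx15 read between 0.459 and 10.7 with both probe sets, and its groups overlapped in each. Tbx1 read 9.86, 9.79 and 10.5 on GFP-positive and 0.794, 8.70 and 13.1 on GFP-negative arrays. These values lay below the median of every array, so a difference was not detectable for either gene, which does not show that they were absent. Across all 8 probe sets that were not kept, the highest intensity was 30.1.

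Counted by probe set rather than by gene, 4 of the 10 kept T-box probe sets were lower at an adjusted p under 0.05 and the other 6 did not pass, against 0.550% lower over all 27821 kept probe sets. These were Tbx20 1453351_at, both Tbx4 probe sets and Tbx3 1448029_at. With the pool as a block, 7 were lower and 1 higher, against 4.93% lower and 4.93% higher. These counts hold probe sets that were kept through the GFP-negative arrays alone and so had to differ, Tbx4 1426321_at in both and Tbx5 1425695_at in the count with the block, so they are a description of the members. Tbx20 1425158_at, in the count with the block, reached the 40th percentile on 3 GFP-negative arrays and 1 GFP-positive array. The 2 that passed neither way were Tbx2 1422545_at (blocked adjusted p = 0.0511) and Tbx18 1449871_at (0.149).

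**Figure D2:**
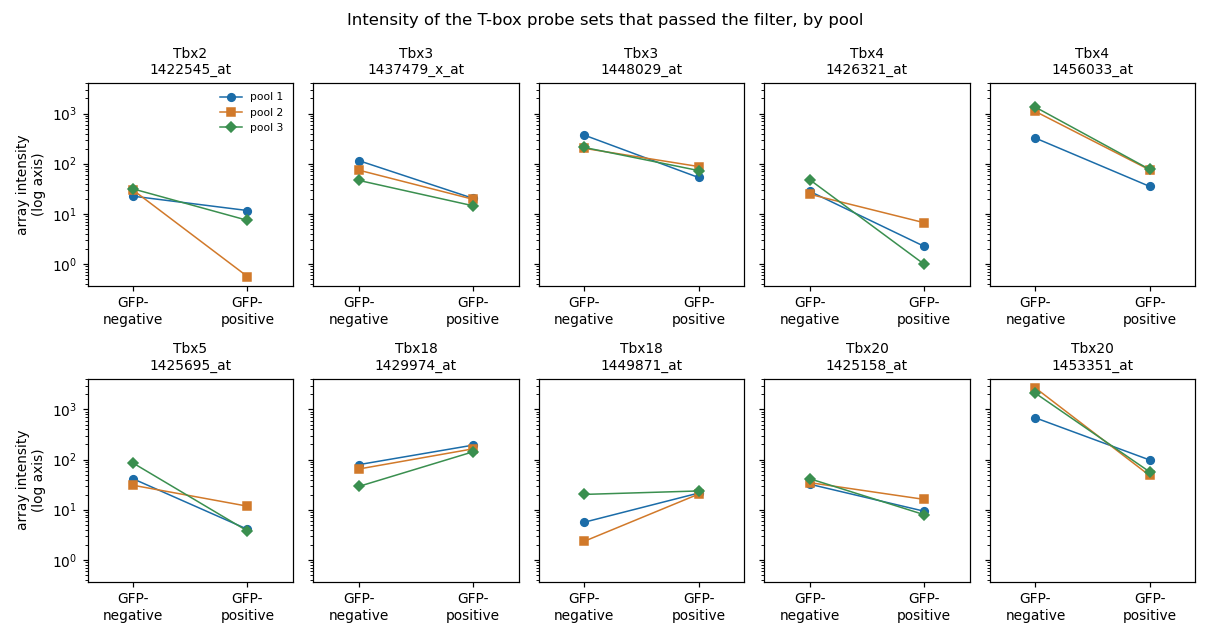
Intensity (y axis, log scale) of each T-box probe set that passed the filter, on the GFP-negative and GFP-positive arrays; lines join the arrays of 1 pool, and each of the 10 panels is 1 probe set. Tbx20 1453351_at runs from 680.1, 2682 and 2104 down to 98.4, 48.2 and 57.1, and Tbx18 1429974_at is the brighter of the 2 panels whose lines rise.

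**Figure D3:**
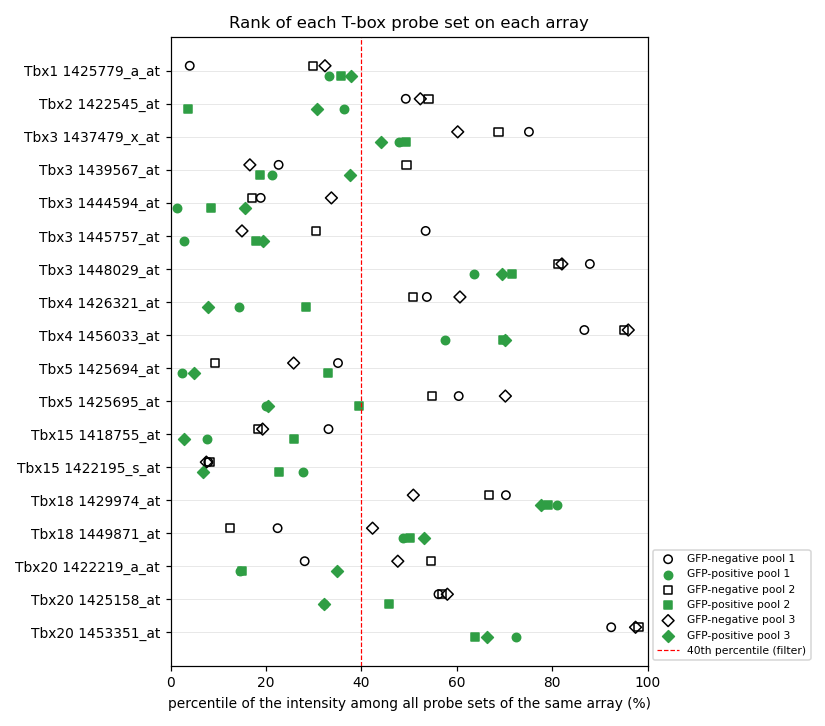
Rank of each of the 18 T-box probe sets among all probe sets of the same array (x axis, percentile), with open symbols for GFP-negative and filled symbols for GFP-positive arrays and 1 symbol shape per pool; the dashed line is the 40th percentile used in the filter. Tbx20 1453351_at ranked at 92.3 to 98.0% in GFP-negative and 63.7 to 72.3% in GFP-positive cells, and every probe set of Tbx1 and Tbx15 lay to the left of 40% on all arrays.

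Some T-box genes lie in pairs in the genome, so the nearest protein-coding genes in RefSeq order were examined for all 8 members. Tbx2 lies beside Tbx4, and Tbx3 beside Tbx5, and all 4 genes were lower in all 3 pools. Tbx2 and Tbx5 were kept through their GFP-negative arrays alone, so the direction of Tbx2 and Tbx5 was largely set by the filter. The probe sets that stand for Tbx3 and Tbx4 reached the 40th percentile on all 6 arrays. Of 12 flanking genes that are no T-box members, 10 were measured, and limma called 0 higher and 0 lower; 2 were higher and 1 lower with an unadjusted p below 0.05. Bcas3, beside Tbx2, had a log2 fold change of 0.50 ± 0.16 (adjusted p = 0.121), and Brip1, beside Tbx4, had -0.37 ± 0.16 (0.227). Med13l, a Mediator subunit beside Tbx3, had 0.98 ± 0.27 (adjusted p = 0.0825, and 0.00911 when blocked on the pool). Rbm19, beside Tbx5, had -0.03 ± 0.36. These flanking genes were chosen by position, after the T-box values were known.

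The rest of the family and its known partners were read from lists. Of 9 other T-box genes, 7 were named by a probe set and 3 were measured; limma called 0 higher and 0 lower (0 and 1 with an unadjusted p below 0.05). Mga, a large T-box protein that pairs with Max, had a log2 fold change of -1.19 ± 0.29 (adjusted p = 0.0581, and 0.0258 with the block). Tbx6, the factor of presomitic mesoderm, had 0.61 ± 0.37, and passed with the block alone (0.0435). Eomes, a factor of early mesoderm and endoderm, had -0.06.

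Transcription factors that work beside cardiac and lateral T-box proteins fell more often than they rose. Of 22 measured among 25 listed, 7 fell, 1 rose and 14 did not pass, with a median log2 fold change of -0.40 against 0.01 over all genes; with the block 9 fell and 4 rose (Foxc1, Foxc2, Sall1 and Smarcd3). Prrx1, a homeobox factor of limb and lateral mesoderm, fell by 1.72 ± 0.22 (SE, adjusted p = 0.0066). Gata6, a zinc finger partner of Tbx20 and Tbx5 in the heart, fell by 1.54 ± 0.22 (0.0105). Isl1, a LIM factor of the second heart field and the hindlimb, fell by 1.70 ± 0.26 (0.0130). Foxc1, a forkhead factor of somites and vessels, was the 1 that rose, by 1.26 ± 0.22.

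Genes listed as targets of T-box factors went in both directions. Of 20 listed, 12 were measured: 4 rose, 2 fell and 6 did not pass, and the median log2 fold change was 0.08. Cdh1, E-cadherin, which Tbx2 and Tbx3 repress in other cells, rose by 1.98 ± 0.21 (SE, adjusted p = 0.0033). Cdkn1a, the cell cycle inhibitor p21 that both also repress, rose by 1.53 ± 0.25 (0.0177). Dll1, a Notch ligand, rose by 1.11, and Fgf8, a growth factor of the tail end, by 1.06. Vcam1, an adhesion molecule of the allantois, fell by 1.91 ± 0.33 (0.0199), and Hand2, a factor of heart and limb, fell by 2.24 ± 0.39. Cdh1 is also an epithelial gene, and of 8 gut endoderm markers 4 were higher (Apela, Trh, Foxa3 and Epcam) and 1 lower (Hhex), with summed intensities of 2172 to 4027 on GFP-positive and 1273 to 1617 on GFP-negative arrays; the part of such cells in these values was not tested.

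Signals known to set T-box genes were mostly without a call. Of 23 genes of BMP, retinoic acid and hedgehog signalling, all measured, 3 rose, 0 fell and 20 did not pass; 5 and 5 had an unadjusted p under 0.05 (Shh, Bmp7, Aldh1a2, Smo and Gli1 higher; Msx1, Msx2, Id2, Bmp4 and Smad6 lower). With the block 4 rose and 4 fell, which were these genes without Gli1 and Smad6. Shh, the hedgehog ligand of the notochord, rose by 4.45 ± 0.58 (SE, adjusted p = 0.0073). Bmp7, a BMP ligand, rose by 1.05 ± 0.19 (0.0225), and Aldh1a2, which makes retinoic acid, rose by 1.81 ± 0.34 (0.0265). Of 8 measured Groucho corepressors, histone deacetylases and their partner Chd4, limma called 0 higher and 0 lower, 6 were higher with an unadjusted p below 0.05 and 0 lower, and with the block 6 rose. Tle1, a Groucho corepressor, had 0.84 ± 0.24 (adjusted p = 0.0918, and 0.0265 with the block). The histone deacetylase Hdac1 had 0.82, and the Groucho corepressor Tle2 had 0.64. For the unadjusted counts of this paragraph, no share of all genes is given here.

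The regions that T-box genes are known to mark were checked with further lists. Among allantois and hindlimb genes, 11 of 13 were measured: 6 fell, 0 rose and 5 did not pass, with a median log2 fold change of -1.07. With the block, 8 fell, and at an unadjusted p below 0.05 limma had 10 lower and 0 higher. The share of all genes at that unadjusted cutoff is not given here. Plac1, a gene of the placenta and allantois, fell by 2.25 ± 0.27 (SE, adjusted p = 0.0047), beside Isl1 and Vcam1. Isl1 and Pitx1 are also among the partner factors that fell, and Vcam1 is among the targets that fell. Isl1 is a lateral plate marker below as well, so these counts are not separate. Among 13 measured heart muscle genes, 1 rose (Myocd, a coactivator of heart and smooth muscle genes, by 1.00 ± 0.19), 0 fell and 12 did not pass. At an unadjusted p below 0.05, 4 were higher (Myocd, Myl2, Myh7 and Tnni3) and 1 lower (Myl4), and with the block Myh7 passed beside Myocd (adjusted p = 0.0446). The summed intensity of the heart genes was 506 to 511 on GFP-positive and 290.0 to 646 on GFP-negative arrays. Ventricular myosin light chain Myl2 read 44.9 ± 1.74 in GFP-positive cells and 21.0 ± 2.29 in the others (SD, n = 3), and the myosin heavy chain Myh7 read 38.0 ± 8.34 and 14.8 ± 9.77. Atrial myosin light chain Myl7 read 10.5 ± 1.55 and 13.4 ± 10.6, and heart troponin Tnnt2 read 11.6 ± 2.32 and 28.6 ± 18.3. The differences of Myl2, Myh7, Myl7 and Tnnt2 had both signs, but none passed in limma without the block (adjusted p = 0.0889, 0.136, 0.863 and 0.276). The GFP-positive means of Myl7 and Tnnt2 lay below the array medians. Every GFP-negative value of Myl2, Myh7 and Myl7 lay below the median of its array too, and such values may be background.

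Markers of several cell types differed between the groups beside the T-box genes. Of 10 lateral plate markers, all measured, 6 were lower and 0 higher in GFP-positive cells, with summed intensities of 584 to 939 against 3295 to 3672. Gata6, Hand2, Isl1, Foxf1 and Prrx1 are among these 6 and among the 7 partner factors that fell, so those counts are not separate. Of 8 measured endothelial markers among 11 listed, 6 were lower (8 with the block) and 0 higher, with sums of 219.9 to 479 against 1597 to 2425. Of 7 measured blood markers, 1 was lower (Hemgn) and 7 with the block, with sums of 334 to 5787 against 12155 to 28735. Of 7 surface ectoderm markers, 4 were lower (Tfap2a, Dlx5, Trp63 and Gata3) and 0 higher, with sums of 251 to 394 against 321 to 436. At an unadjusted p under 0.05 in limma, and with the block, 1 was higher (Perp) and the same 4 were lower. Of 6 measured neural plate markers, 1 was lower (Nkx1-2) and 0 higher, with sums of 1715 to 1988 against 2791 to 2865. Unadjusted, 2 were higher (Nkx6-1 and Irx3) and 2 lower (Nkx1-2 and Pax6). With the block, 1 was higher (Irx3) and 2 were lower (Nkx1-2 and Pax6). Of 3 measured intermediate mesoderm markers limma called 0, and 1, Osr1, was lower unadjusted and with the block. Somitic markers went the other way, as did Tbx18: 4 of 10 were higher (Pcdh8, Ripply2, Meox1 and Tcf15; 7 with the block) and 0 lower, with sums of 3999 to 4062 against 1199 to 1510.4. In the lateral plate, endothelial and blood lists 0 genes were higher, and in the somitic list 0 were lower, at an unadjusted p under 0.05 in limma too. No measured marker of these lists was at 0 on any array, which does not show that each was expressed. Hemgn read 1.15 on GFP-positive array 1, and values below the array medians may be background. The part of such cells in the T-box differences was not tested.

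**Figure D4:**
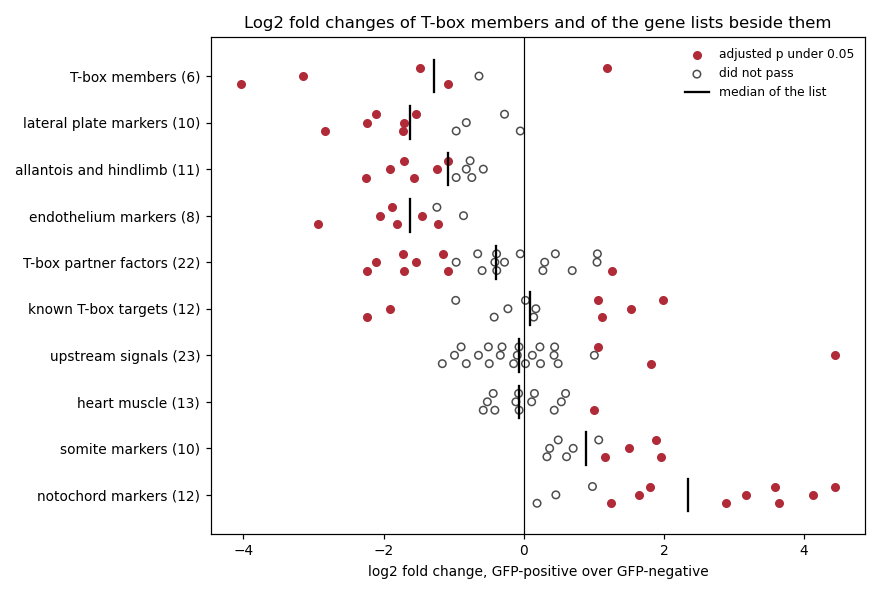
Log2 fold change of GFP-positive over GFP-negative cells (x axis) for measured genes of the T-box group and of 9 gene lists (rows, with the number of genes); filled points passed at an adjusted p under 0.05, open points did not, and black bars are medians. Genes that are T-box members are left out of the other lists. Some other genes stand in several lists. The T-box members have 4 filled points to the left of 0 and 1 to the right, while filled points of lateral plate, allantois and endothelial genes lie to the left and those of somite and notochord genes to the right.

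The genes whose pattern over the 6 arrays was most like that of Tbx20 and Tbx4 are given as a description. For Tbx20 these were Rexo5, Ccdc50, Hook3, Nrk and Tmem88, with Pearson r of log2 values between 0.996 and 0.999. Of these, Nrk, a kinase gene, fell by 1.28 ± 0.23 (SE, adjusted p = 0.0247). For Tbx4 they were Hoxa10, Prkd3, Vcam1, Scd1 and Enoph1, with r between 0.996 and 0.998. Hoxa10, a Hox gene of the tail end and hindlimb, fell by 1.56 (adjusted p = 0.0281), and Scd1, a fatty acid desaturase, by 1.45 ± 0.25 (0.0201). Over these 6 arrays in 2 groups, 254 of 12622 other genes had r over 0.95 with Tbx20 and 294 with Tbx4, and all of them share the same arrays and pools.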

How the data were processed

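Total RNA of sorted cells from 3 embryo pools was measured on 6 one-colour Affymetrix arrays after 2 rounds of amplification with a carrier, per the labels' protocols. The deposited values are intensities on a linear scale, made with GCOS 1.4 per the submitters' processing notes. The mean intensity with 2% trimmed at each end was the same on all arrays, so the authors had scaled each array to 1 level. Detection calls were not used here. Amplification from the 3′ end makes probe sets far from it sensitive to RNA quality. Of 45101 probe sets, 64 were controls; 34945 had 1 symbol, 932 had several and 9160 had none. All per-sample columns were used (0 left out).

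Each intensity was moved to the scale log2(intensity + 32), which makes changes of dim genes look smaller. The filter removed probe sets that reached their array's 40th percentile on fewer than 3 of 6 arrays and left 27821. One limma 3.58.1 model (R 4.3.3; lmFit, then eBayes with trend) compared the 2 groups over all of these, with no other term. The brightest kept probe set on average stood for its gene. Benjamini-Hochberg adjustment ran over 12628 genes, or over probe sets where stated, with 0.05 as the threshold. The error beside a log2 fold change is limma's standard error. Lists are described by counts and medians, with no test of the list. Counts at an unadjusted p below 0.05 have no share of all genes beside them, so they are a description only. The script was tested on simulated data with known changes, whose values are not given here. Figures were drawn with Python 3.11.15.

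The T-box members and all lists were chosen with earlier results of these data known. Named genes were all members, the 3 genes of each related list with the smallest adjusted p, genes behind counts of at most 5, and the 5 genes most like Tbx20 and Tbx4; the flanking genes, Myl7 and Tnnt2 were chosen after their values were seen.

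The labels give each pair of arrays with 1 number the same embryos, so replicate numbers are a pairing by label. Correlations of their deviations from group means were 0.542, 0.286 and 0.436 within pools 1, 2 and 3. Between pool 1 and the others they were -0.523 to -0.358. Deviations from a group mean cancel out over the 3 arrays, so the negative sign of these values follows in part from the calculation. GFP-positive array 3 had 0.380 with GFP-negative array 2, and GFP-positive array 2 had 0.279 with GFP-negative array 3. These correlations thus set pool 1 apart but do not tell pool 2 from pool 3. The unblocked fit is reported, and alternatives were the pool as a block, the offset, normalization, filter, variance trend, threshold, probe set summary and each array or pool left out. Promoter stretches came from RefSeq (GRCm38.p6), for 4 of 8 members.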

Additional observations from a re-analysis of the deposited data

How the results depend on the processing

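No fold change of a T-box member or its kept probe sets changed direction under the alternatives run. The 52 other genes of the lists and text that passed kept their sign wherever tested; 40 to 52 of them kept their call under other settings, but 5 were untested with the filter at the 60th percentile, and 2 to 52 kept it with an array or pool left out (2 without pool 2, 6 without pool 3). List medians were not recomputed. Tbx20 stayed past the threshold in 16 of 18 alternatives, Tbx4 in 13 of 18, Tbx3 in 11 of 18, Tbx18 in 8 of 18 and Tbx5 in 7 of 17. Leaving out 1 array or 1 pool moved the log2 fold change of Tbx20 between -4.83 and -3.52, of Tbx4 between -3.75 and -2.78, of Tbx3 between -1.73 and -1.09, of Tbx5 between -1.36 and -0.77, of Tbx2 between -0.80 and -0.50 and of Tbx18 between 0.93 and 1.36. Tbx18 lost its call at an offset of 16 (1.37, adjusted p = 0.0501), with quantile normalization (1.23, 0.0530) and with no filter (1.18, 0.0739). Tbx5 lost its call at an offset of 64 (-0.69, adjusted p = 0.0580), with no filter (-1.08, 0.0768) and with no variance trend (-1.08, 0.0564). Tbx2 gained one with the pool as a replicate block (-0.64, adjusted p = 0.0408). A filter at the 60th percentile left Tbx2 and Tbx5 untested.

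The count of higher members was 1 and became 0 at an offset of 16, with quantile normalization, with no filter and at a threshold of 0.01; with arrays or pools left out it was 0 to 1. The count of lower members was 4 and became 1 at a threshold of 0.01 and 0 to 5 with arrays or pools left out (0 without pool 2 or pool 3, 5 without GFP-negative array 1 or pool 1). With the pool as a block, 21 related-list genes were higher and 20 lower (9 and 11 without it), and 1061 of all genes were higher and 854 lower (328 and 178 without it). At a threshold of 0.01 these were 2 and 2 related-list genes and 80 and 19 of all genes, and with no filter 92 of all genes were lower. With arrays or pools left out, related-list genes numbered 0 to 26 higher and 0 to 29 lower, and all genes 5 to 2432 higher and 0 to 2163 lower. A fit on 1 probe set per gene, added after seeing the data, called 372 genes higher and 216 lower, and 1 and 4 members. The cause of these changes was not tested. Apart from Tbx2, the block changed no member's call by gene. With it the adjusted p in limma was 0.00147 for Tbx20, 0.000351 for Tbx4, 0.00952 for Tbx3, 0.0193 for Tbx5 and 0.00612 for Tbx18.

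With 3 arrays a group, the unblocked p-values set each difference against the spread between arrays of the same group, moderated over all kept probe sets. They do not use the pairing by pool. Tbx1 and Tbx15 read below the median of every array, and they have no fitted fold change. Tbx2, Tbx5 and the dimmer Tbx4 probe set lay below the 40th percentile on all GFP-positive arrays, so the offset understates their fold changes. GFP-negative array 1 was the library whose absence brought the most calls.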
